A study of Mus musculus with 16 samples.

Results

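Striatal mRNA counts of the neurotrophins and their receptors were described for 6 genes. With earlier results of these data known, the 6 genes were chosen by symbol. They were *Bdnf* and *Ntf3*, which encode the secreted ligands brain-derived neurotrophic factor and neurotrophin 3, *Ntrk2* and *Ntrk3*, which encode their receptor tyrosine kinases TrkB and TrkC, *Ngfr*, which encodes the p75 neurotrophin receptor, and *Sort1*, which encodes sortilin. All 6 genes were matched in the table of 55450 genes. Membership also required 10 or more counts in 4 or more libraries of the 16. Of the 6 named genes, 5 met this limit and *Ntf3* did not, and 19363 genes met it in all. The count limit used neither genotype nor performance.

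The striatum of 16 male mice was measured, each mouse giving 1 library. The mice were 14 weeks old, untreated and of C57Bl/6 background, and fell into 4 groups of 4 mice labelled wt good, wt poor, R6/1 good and R6/1 poor. The R6/1 line, a model of Huntington’s disease, carries a transgene with exon 1 of the human huntingtin gene under its own human promoter and an expanded CAG repeat, and the wt mice were littermates without it. All 16 mice had been housed alone before behavioural testing, and "good" and "poor" name the mice at opposite ends of the scores for rotarod, feet clasping and body weight within their genotype. The study asked whether striatal transcription differs with genotype and with performance. The transgene is 1 fragment of huntingtin at 1 insertion, so the R6/1 values are those of a single transgenic line.

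Neurotrophins are made as precursors, cleaved and released, and bind Trk receptors, whose kinase domains recruit adaptors and start the Ras–ERK, PI3K–Akt and phospholipase C cascades. The precursors bind p75NTR together with sortilin or its relatives, which also steer precursor sorting within the cell. In the striatum most BDNF protein is known to arrive through axons from the cortex, where *Bdnf* is transcribed, and it acts on TrkB of medium spiny neurons, which are its projection neurons. TrkB is also made by astrocytes, largely in a truncated form without the kinase domain, and p75NTR is a known marker of cholinergic neurons of the basal forebrain below the striatum. *Bdnf* has several promoters that respond to neuronal activity, partly through elements bound by CREB.

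The genes lie on 6 chromosomes of GRCm38. *Bdnf* spans chr2:109674700-109727007 on the plus strand and shares 896 exon bases with the antisense gene Gm45346. *Ntf3* spans chr6:126101412-126166910 on the minus strand, *Ntrk2* chr13:58806569-59133970 on the plus strand and *Ntrk3* chr7:78175959-78738012 on the minus strand. *Ngfr* spans chr11:95568818-95587735 on the minus strand and *Sort1* chr3:108284082-108361511 on the plus strand, where 338 exon bases are shared with the antisense gene Gm12523. Whether reads of the antisense genes were kept apart in the counts is not known, since the strand setting was not given. The annotation lists 7 coding transcripts of *Ntrk2* and 6 of *Ntrk3*, full-length and truncated, and counts per gene hold them together. Promoter windows of RefSeq (GRCm38.p6), the 250 bases before a transcript start, were found for 4 of the 6 genes, with 7 windows for *Bdnf*, 2 for *Ntf3* and 1 each for *Ntrk2* and *Ngfr*. The *Bdnf* window at chr2:109692186-109692435, plus strand, is shown as the 1 of its 7 windows with the CREB-response half-site CGTCA (on either strand, CGTCA or TGACG), in capitals 35 bases before the start. The window of *Ntrk2* at chr13:58806319-58806568, plus strand, is shown as that of the receptor with the most counts. The window of *Ngfr* at chr11:95587699-95587948, minus strand, is shown for its 4 GC boxes (GGGCGGG or CCCGCCC, in capitals). The end of this window, with the GC box 17 bases before the RefSeq start, lies within the span of *Ngfr* given above. All 3 windows are written 5′ to 3′ on the strand of the gene.
Bdnf: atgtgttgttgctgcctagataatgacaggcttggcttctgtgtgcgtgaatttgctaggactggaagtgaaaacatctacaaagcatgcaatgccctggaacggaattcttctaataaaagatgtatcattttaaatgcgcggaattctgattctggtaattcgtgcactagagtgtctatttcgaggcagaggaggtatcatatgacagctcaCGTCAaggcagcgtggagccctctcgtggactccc
Ntrk2: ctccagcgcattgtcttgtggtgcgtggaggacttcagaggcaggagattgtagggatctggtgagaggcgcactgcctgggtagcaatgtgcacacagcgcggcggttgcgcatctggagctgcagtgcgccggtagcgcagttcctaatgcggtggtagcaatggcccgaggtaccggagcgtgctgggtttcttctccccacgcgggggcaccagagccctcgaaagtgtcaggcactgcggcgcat
Ngfr: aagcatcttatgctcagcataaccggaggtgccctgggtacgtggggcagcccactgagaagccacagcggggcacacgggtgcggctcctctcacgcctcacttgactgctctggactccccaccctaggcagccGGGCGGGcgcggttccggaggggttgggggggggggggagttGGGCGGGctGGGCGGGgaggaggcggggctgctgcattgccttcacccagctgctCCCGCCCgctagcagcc

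Of 32851 windows of this length, 17.8% held the half-site, 1.55% the full element TGACGTCA and 23.4% a GC box, so these matches are shared with many genes. The *Ntrk2* window held none of the 3 motifs and the 7 *Bdnf* windows held no full element. These are matches of letters and not measured sites.

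Total counts per library ran from 16155356 to 24897354, and levels are given as CPM, counts scaled to the library totals after TMM normalisation. The column names carry a running library number, and all 4 R6/1 good mice lay in libraries 1 to 8 with R6/1 poor mouse 2, wt good mice 1 and 4 and wt poor mouse 1, whereas the other 8 mice lay in libraries 9 to 16. What the number marks is not given in the sources used here, and the division at 8 was made here. Totals were 16155356 to 20250680 in the former and 21529188 to 24897354 in the latter, so performance of the R6/1 mice and library number were largely confounded. Markers of medium spiny neurons were present in every library, and the summed level of 10 such markers was 4400 to 7249 CPM in wt mice and 1136 to 2987 CPM in R6/1 mice, with all 10 called lower in R6/1 mice. In such whole-tissue samples, fewer cells of a type and less RNA per cell cannot be told apart.

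Per kilobase of exon, the levels in wt mice (n = 8) were highest for the sorting receptor *Sort1* (58.7 ± 3.59 CPM per kb, SD) and *Ntrk2* (36.5 ± 2.19). *Ntrk3* stood at 6.88 ± 0.765, *Ngfr* at 2.47 ± 1.73, *Bdnf* at 1.22 ± 1.20 and *Ntf3* at 0.138 ± 0.135 CPM per kb. The ranges of *Sort1* and *Ntrk2* overlapped with no other gene described here, whereas those of *Ngfr* and *Bdnf* overlapped with each other. The sorting receptors related to sortilin fell between them, with *Sorl1* at 19.0 ± 1.46, *Sorcs2* at 12.9 ± 1.34, *Sorcs1* at 7.61 ± 0.596 and *Sorcs3* at 5.21 ± 1.07 CPM per kb. *Sorcs1* overlapped with *Ntrk3* and *Ntrk3* with *Sorcs3*. *Ntf5*, the gene of neurotrophin 4, had 0 to 2 counts per library. In R6/1 mice (n = 8) the order of the mean levels was the same, with *Sort1* at 43.8 ± 4.78 and *Ntrk2* at 29.1 ± 4.49 CPM per kb. This order depends on the divisor, the merged exons of all annotated transcripts. It was 7.569 kb for *Sort1*, 19.292 kb for *Ntrk2* and 30.17 kb for *Ntrk3*. In CPM, *Ntrk2* (640.1 to 763.9) lay above *Sort1* (407.8 to 483.5) in wt mice, and *Ntrk3* (mean 207.5) stood above *Sorcs2* (113.6) and *Sorcs1* (64.25).

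**Figure D1:**
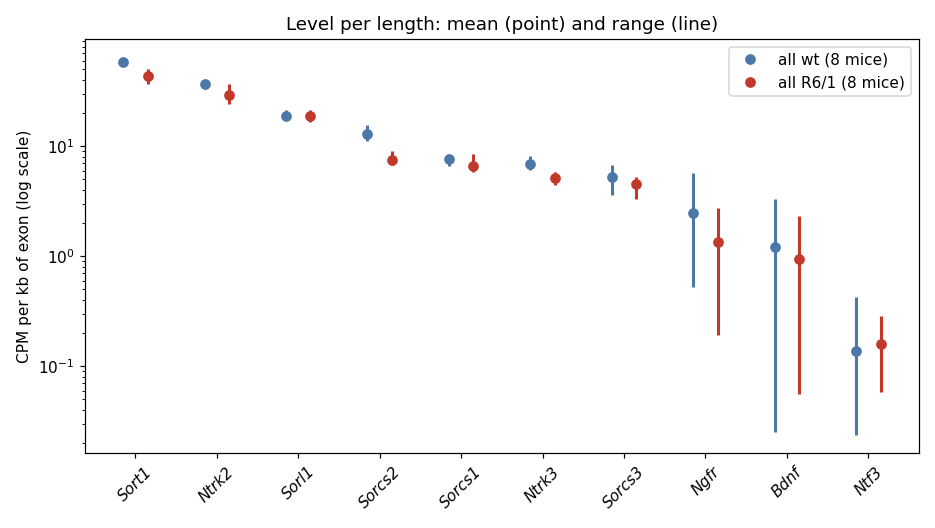
Mean level (point) and range over the mice (line) of the 6 named genes and 4 relatives of *Sort1* in CPM per kb of exon, on a log axis, for 8 wt and 8 R6/1 mice. *Sort1* and *Ntrk2* stand highest, at 58.7 and 36.5 CPM per kb in wt mice, and *Ngfr*, *Bdnf* and *Ntf3* have the widest ranges on this scale.

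*Ntrk2*, *Ntrk3* and *Sort1* were lower in R6/1 than in wt mice (n = 8 each), and *Bdnf* and *Ngfr* did not pass the test. Every adjusted p is from the quasi-likelihood fits of edgeR, adjusted over 19363 genes by Benjamini-Hochberg, unless another test is named. In this comparison 3 of the 5 members tested were called lower and 0 higher. Of all genes tested, 17% were called lower and 34.2% in either direction. Over the 5 members the median log2 fold change was -0.42, and over all genes it was 0.02. Levels of *Ntrk3* and *Sort1* did not overlap between the genotypes, a separation seen in the lower direction for 5.03% of all genes.

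**Figure D2:**
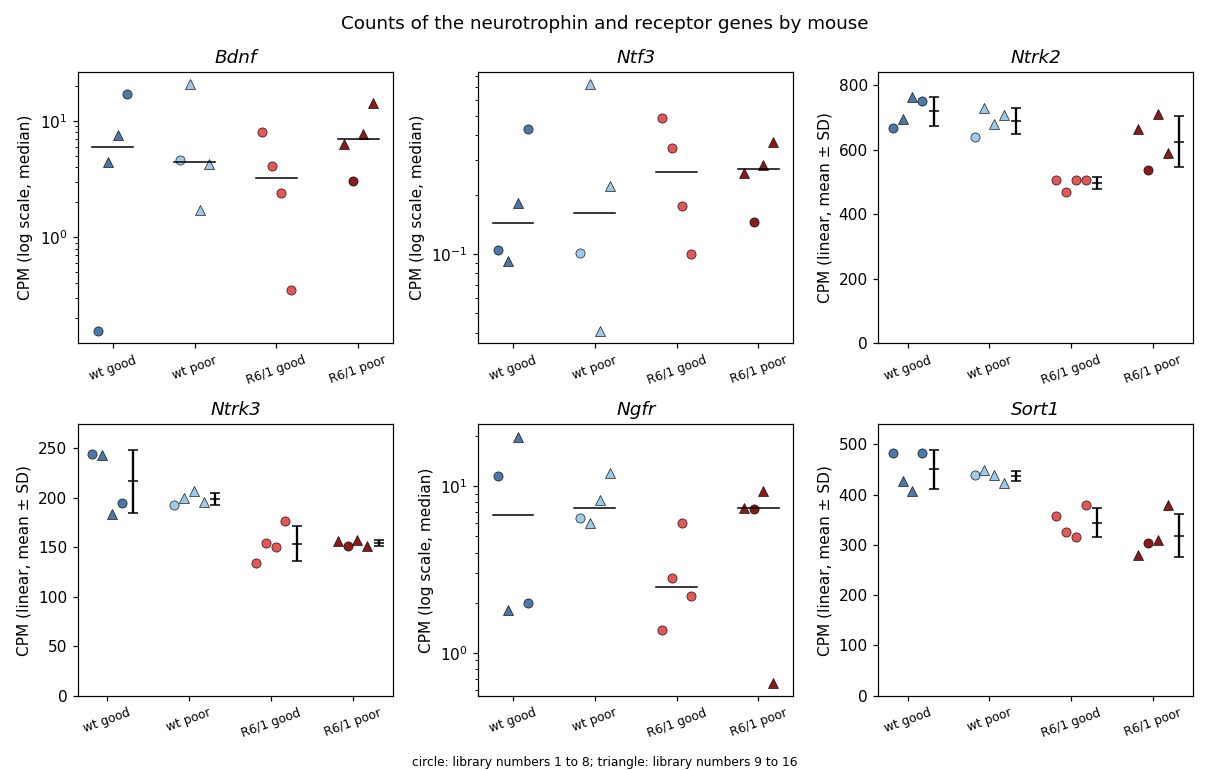
CPM of the 6 named genes in each of the 16 mice by group, on log axes with the median for *Bdnf*, *Ntf3* and *Ngfr* and on linear axes from 0 with mean ± SD for *Ntrk2*, *Ntrk3* and *Sort1*, with circles for libraries 1 to 8 and triangles for libraries 9 to 16. All R6/1 mice lie below all wt mice for *Ntrk3* (up to 176.2 against at least 183.9 CPM) and *Sort1* (up to 379.3 against at least 407.8 CPM).

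*Ntrk2* encodes TrkB, the receptor of BDNF and neurotrophin 4. Its levels were 668.0, 693.8, 763.9 and 749.8 CPM in wt good mice 1 to 4 and 640.1, 729.7, 678.3 and 709.1 CPM in wt poor mice 1 to 4. They were 507.2, 468.1, 506.8 and 505.1 CPM in the R6/1 good mice and 664.5, 537.1, 712.2 and 588.3 CPM in the R6/1 poor mice. All 4 R6/1 good mice lay below every wt mouse, whereas R6/1 poor mice 1 and 3 lay within the wt range and mice 2 and 4 below it. The log2 fold change of R6/1 against wt was -0.33 ± 0.08 (SE, adjusted p = 0.00331), that is 20.3% lower. It was -0.45 (adjusted p = 0.00161) within libraries 1 to 8 and -0.13 (adjusted p = 0.301) within libraries 9 to 16, where the R6/1 mice were 3 poor mice.

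*Ntrk3*, the gene of the neurotrophin 3 receptor TrkC, had 244.2, 242.9, 183.9 and 194.8 CPM in the wt good mice and 193.1, 200, 206.3 and 195.2 CPM in the wt poor mice. In the R6/1 good mice it had 133.8, 154.7, 149.8 and 176.2 CPM, and in the R6/1 poor mice 156.2, 151.5, 157.6 and 150.9 CPM. Every R6/1 mouse lay below every wt mouse, and wt good mice 1 and 2 stood above all others. The log2 fold change was -0.43 ± 0.07 (SE, adjusted p = 6.5e-05), 25.9% lower in R6/1 mice. Within libraries 1 to 8 and 9 to 16 it was -0.47 (adjusted p = 0.00775) and -0.41 (adjusted p = 0.0127).

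*Sort1* encodes sortilin, which carries proneurotrophins inside the cell and serves as a co-receptor of p75NTR. The wt good mice had 483.5, 428.2, 407.8 and 483.1 CPM and the wt poor mice 439.2, 448.4, 438.5 and 422.9 CPM. The R6/1 good mice had 356.8, 326.4, 316.2 and 378.9 CPM and the R6/1 poor mice 281.0, 304.3, 310.3 and 379.3 CPM. The highest R6/1 value stood below the lowest wt value. *Sort1* was 25.3% lower in R6/1 mice, with a log2 fold change of -0.42 ± 0.06 (SE, adjusted p = 5.9e-05), -0.49 (adjusted p = 0.00177) within libraries 1 to 8 and -0.41 (adjusted p = 0.0167) within libraries 9 to 16. Like these 3 receptors, the summed markers of medium spiny neurons and astrocytes were lower in R6/1 than in wt mice. All 6 markers of microglia and all 5 of endothelial cells were also called lower. Of 12 markers of cortical excitatory neurons 3 were called lower, and the median log2 fold change of the 12 was 0.12. The summed level of 10 astrocyte markers was 4617 to 5317 CPM in wt and 2940 to 3652 CPM in R6/1 mice, with 5 called lower, 1 higher and none at 0 in any library. The median log2 fold change of the 10 was -0.29, and *Slc1a2* alone ran from 1559 to 3474 CPM over all mice. What part these markers have in the receptor values was not tested.

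*Ngfr* encodes p75NTR, which binds all neurotrophins. Its levels were 11.5, 1.80, 19.8 and 1.99 CPM in the wt good mice and 6.45, 5.99, 8.29 and 12.1 CPM in the wt poor mice. They were 1.37, 2.80, 6.02 and 2.20 CPM in the R6/1 good mice and 7.44, 7.29, 9.36 and 0.655 CPM in the R6/1 poor mice. The groups overlapped, and the lowest value of all 16 mice was that of R6/1 poor mouse 4 and the highest that of wt good mouse 3. The log2 fold change of R6/1 against wt was -0.87 ± 0.54 (SE, adjusted p = 0.232).

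*Bdnf*, the gene of the main TrkB ligand, varied widely between mice of the same group. The wt good mice had 0.157, 4.42, 7.64 and 17.2 CPM and the wt poor mice 4.59, 20.8, 1.71 and 4.31 CPM. The R6/1 good mice had 8.13, 4.12, 2.39 and 0.350 CPM and the R6/1 poor mice 6.41, 3.04, 7.70 and 14.4 CPM. These levels rest on 3 to 430 counts per library. The coefficient of variation was 97.7% in wt and 75.5% in R6/1 mice, against 6.00% and 15.4% for *Ntrk2* and 11.1% and 7.57% for *Ntrk3*. The groups overlapped throughout, and the log2 fold change of R6/1 against wt was -0.37 ± 0.67 (SE, adjusted p = 0.704). Without wt poor mouse 2 it was 0.04.

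*Ntf3* had 2, 2, 4 and 8 counts in the wt good mice, 2, 15, 1 and 5 in the wt poor mice, 10, 7, 3 and 2 in the R6/1 good mice and 6, 3, 7 and 9 in the R6/1 poor mice. It was therefore detected in every library, at 0.0408 to 0.725 CPM, and was too low for the main test. With no filter on low counts its log2 fold change of R6/1 against wt was 0.23 ± 0.45 (SE, adjusted p = 0.779). No difference between groups was detectable at this depth. The highest *Ntf3* value and the highest *Bdnf* value were both those of wt poor mouse 2.

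Each R6/1 group was also compared with the 8 wt mice, so the results below share their controls. In R6/1 good mice (n = 4), *Ntrk2* fell by 0.50 ± 0.06 on the log2 scale (SE, adjusted p = 4.2e-05), *Ntrk3* by 0.43 ± 0.09 (adjusted p = 0.00286) and *Sort1* by 0.36 ± 0.06 (adjusted p = 0.00101). All 3 had no overlap with wt mice. Called lower were 12.4% of all genes, and 7.76% lay apart from wt mice in that direction. *Ngfr* stood at -1.48 ± 0.66 (adjusted p = 0.126) and *Bdnf* at -1.01 ± 0.94 (adjusted p = 0.474).

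In R6/1 poor mice (n = 4), *Ntrk3* fell by 0.43 ± 0.08 (adjusted p = 0.00124) and *Sort1* by 0.48 ± 0.08 (adjusted p = 0.000503), again without overlap, and 2 of the 5 members were called lower. Here 14.9% of all genes were called lower and 8.85% lay apart in that direction. *Ntrk2* had a log2 fold change of -0.17 ± 0.08 (adjusted p = 0.109), and without R6/1 poor mouse 3 it was -0.24 (adjusted p = 0.0493). *Ngfr* stood at -0.46 ± 0.67 (adjusted p = 0.646) and *Bdnf* at 0.06 ± 0.78 (adjusted p = 0.962). In libraries 1 to 8 alone, where only poor mouse 2 stood against 3 wt mice, *Ntrk3* had -0.48 (adjusted p = 0.181) and *Sort1* -0.62 (adjusted p = 0.0531).

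**Figure D3:**
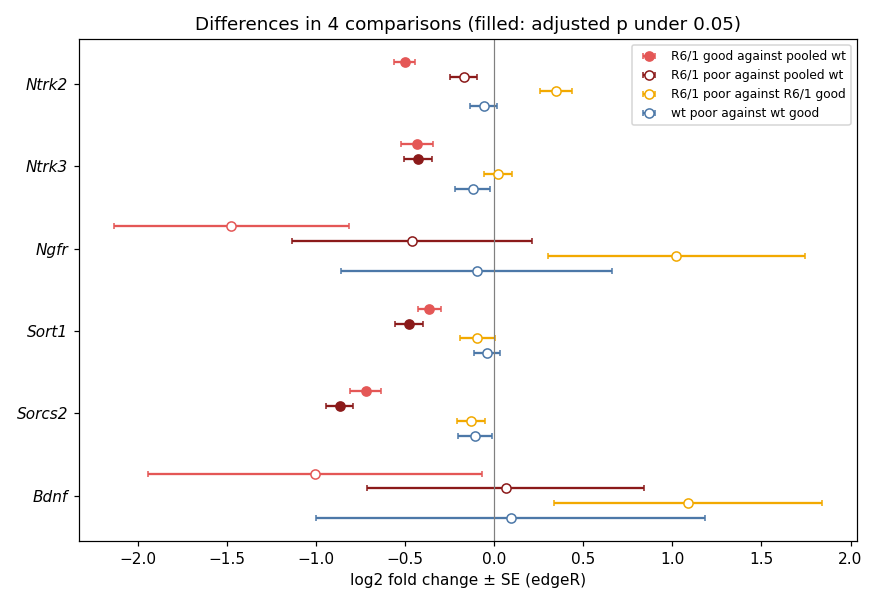
Log2 fold changes ± SE by edgeR for the 5 tested members with *Sorcs2* in 4 comparisons, with filled points for an adjusted p under 0.05. *Ntrk2* lies at -0.50 in R6/1 good and at -0.17 in R6/1 poor mice, while *Ntrk3* lies at -0.43 in both.

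Among R6/1 mice, the difference of poor from good animals was largest relative to its error for *Ntrk2*. Its levels were 537.1 to 712.2 CPM in poor and 468.1 to 507.2 CPM in good mice and did not overlap, a separation found in the higher direction for 2.45% of all genes. The log2 fold change was 0.35 ± 0.09 (SE), with an unadjusted p of 0.00295 and an adjusted p of 0.248. By edgeR 0 members were called, as were 0% of all genes (3000 genes had an unadjusted p under 0.05), whereas DESeq2 called 356 genes, 1.84% of those tested (1.17% higher), and among the members *Ntrk2* (DESeq2, adjusted p = 0.0272). Adding the division of the libraries at number 8 as a covariate gave 0.12 ± 0.12, and libraries 1 to 8 alone, where poor mouse 2 stood against the 4 good mice, gave 0.12 ± 0.10. Performance and library number cannot be fully told apart here. The summed astrocyte markers were 3127 to 3652 CPM in poor and 2940 to 3584 CPM in good mice. Sums of 8 markers of lateral septal neurons were 230.1, 120.2, 206.7 and 94.4 CPM in poor mice 1 to 4 and 81.7 to 117 CPM in good mice, with none at 0 in any library. Sums of 9 hypothalamic markers, 6 of them at 0 in 2 to 8 libraries, were 20.5, 8.93, 15.5 and 4.42 CPM in poor mice 1 to 4 and 3.19 to 7.48 CPM in good mice. Both sums were highest in poor mice 1 and 3, which also had the highest *Ntrk2* of the R6/1 mice. Of the septal markers, *Zic1* alone ran from 10.2 to 120.5 CPM over all mice. By edgeR, 0 of 8 septal and 0 of 6 tested hypothalamic markers were called between poor and good R6/1 mice. Against wt mice, 1 septal and 2 hypothalamic markers were called higher in R6/1 poor mice. The part of these markers in the *Ntrk2* value was not tested.

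The levels of the other members overlapped between poor and good R6/1 mice, and none of them was called. *Ntrk3* had a log2 fold change of 0.02 ± 0.08 (SE, adjusted p = 0.925) and *Sort1* of -0.10 ± 0.10 (adjusted p = 0.650). *Ngfr* had 1.02 ± 0.72 (adjusted p = 0.514) and *Bdnf* 1.09 ± 0.75 (adjusted p = 0.506). For *Bdnf* adding that covariate gave -0.30.

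Between wt poor and wt good mice (n = 4 each), edgeR called 0 members and 0% of all genes, with 472 genes at an unadjusted p under 0.05, and DESeq2 called 0 as well. Log2 fold changes were -0.06 ± 0.08 (SE) for *Ntrk2*, -0.12 ± 0.10 for *Ntrk3*, -0.04 ± 0.07 for *Sort1*, -0.10 ± 0.76 for *Ngfr* and 0.09 ± 1.09 for *Bdnf*. The interaction, that is the difference of poor and good mice in R6/1 minus that in wt mice, was 0.39 ± 0.12 for *Ntrk2* with an unadjusted p of 0.00351 and an adjusted p of 0.826. It was 0.13 ± 0.13 for *Ntrk3*, -0.07 ± 0.13 for *Sort1*, 1.11 ± 1.11 for *Ngfr* and 0.98 ± 1.39 for *Bdnf*. No interaction was called by edgeR among all genes (1118 had an unadjusted p under 0.05), and DESeq2 called 1 gene (0.00516%), which was no member.

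The wide spread of *Bdnf* was set beside markers of cortical excitatory neurons, which border the striatum on dissection. This pairing was chosen after the values were seen, and the p-values below do not allow for that choice. Pearson's r here and in the relations below was computed from log2 values. The summed level of 12 markers ran from 235 to 984 CPM in wt and from 200 to 1017 CPM in R6/1 mice, 3 of them were called lower in R6/1 mice, and none was at 0 in any library. Among the 8 wt mice the *Bdnf* level rose with this sum (Pearson’s r = 0.902, exact two-sided permutation p = 0.00169, 0.00675 after Benjamini-Hochberg adjustment over 8 relations, and Spearman’s rho = 0.81, permutation p = 0.0218, adjusted 0.0871). It was 0.889 without wt good mice 1 and 4, which lay farthest from the median sum. Among the 8 R6/1 mice r was 0.641 (permutation p = 0.0343, adjusted 0.0782, rho = 0.714, permutation p = 0.0576, adjusted 0.139), and 0.383 without R6/1 good mouse 1 and R6/1 poor mouse 4, on which the relation rested. R6/1 poor mouse 1 had 6.41 CPM of *Bdnf* at the lowest sum, 200 CPM.

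**Figure D4:**
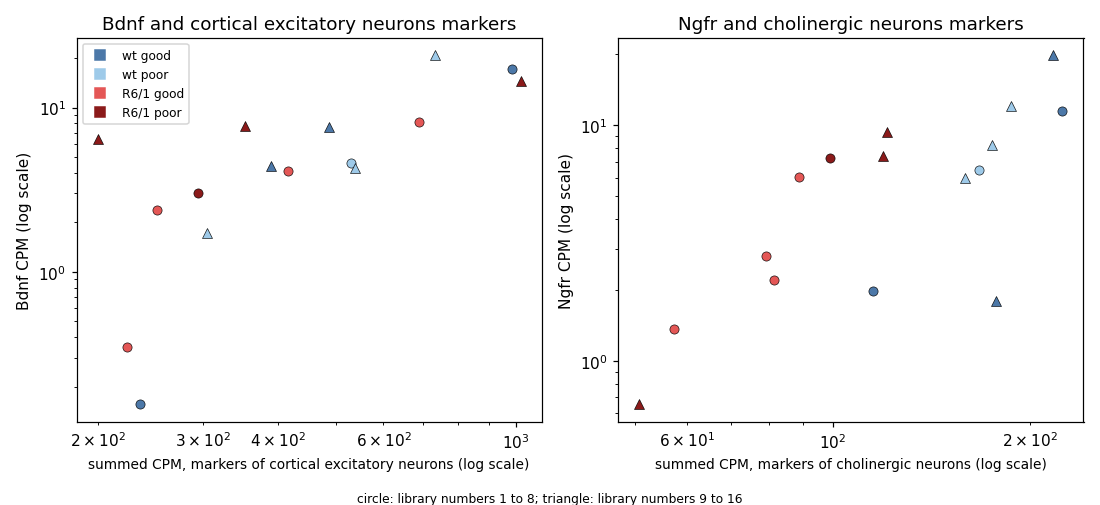
*Bdnf* against the summed markers of cortical excitatory neurons (left) and *Ngfr* against the summed markers of cholinergic neurons (right), in CPM on log axes, 1 point per mouse, coloured by group and shaped by library number. *Bdnf* is 0.157 CPM in the wt mouse with a cortical sum of 235 CPM and 17.2 CPM in the one with 984 CPM.

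*Ngfr* was likewise set beside 6 markers of cholinergic neurons. Their sum was 115 to 224 CPM in wt and 50.8 to 121 CPM in R6/1 mice, with 4 called lower and none at 0 in any library. In R6/1 mice r was 0.960 (exact two-sided permutation p = 0.000198, adjusted 0.00159, rho = 0.976, permutation p = 0.000397, adjusted 0.00317) and 0.869 without R6/1 good mouse 1 and R6/1 poor mouse 4. The latter mouse had the lowest sum, 50.8 CPM, and the lowest *Ngfr*, 0.655 CPM. R6/1 poor mice 1, 2 and 3 had a higher sum and more *Ngfr* than every R6/1 good mouse. The permutations took the 8 mice as exchangeable, so this difference between the groups is part of r and its p-value. In wt mice r was 0.739 (permutation p = 0.0391, adjusted 0.0782, rho = 0.69, permutation p = 0.0694, adjusted 0.139), and 0.586 without wt good mice 1 and 4. *Ngfr* was 1.80 CPM in wt good mouse 2 at a sum of 177 CPM. *Ntrk2* and the summed astrocyte markers had r of -0.01 in wt mice (permutation p = 0.990, adjusted 0.990, rho = -0.17, permutation p = 0.703). In R6/1 mice r was 0.579 (permutation p = 0.133, adjusted 0.213, rho = 0.452, permutation p = 0.268) and 0.443 without the farthest pair. *Bdnf* and *Ngfr* had r of -0.36 in wt mice (permutation p = 0.368, adjusted 0.491, rho = -0.36) and of -0.15 in R6/1 mice (permutation p = 0.791, adjusted 0.904, rho = -0.24). These 8 relations were chosen after the values were seen, and neither their p-values nor the adjustment allow for that choice. Each set of library numbers held too few mice of a genotype, 3 or 5, for a value of its own.

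The genes most like each member over the mice were named by the lower of the Pearson correlations of log2 CPM over the 8 wt and over the 8 R6/1 mice, among 14575 genes and without a test. For *Bdnf* they were *Nrn1*, the gene of the neuronal surface protein neuritin (r = 0.976 in wt and 0.975 in R6/1 mice), which is also 1 of the 12 cortical markers, and *Basp1* (0.934 and 0.949), a growth cone protein gene. For *Ngfr* they were *Lrig1* (0.955 and 0.959), a transmembrane regulator of receptor tyrosine kinases, and *Gbx1* (0.951 and 0.955), a homeobox gene. For *Sort1* they were *Osbp2* (0.896 and 0.933), an oxysterol-binding protein gene, and *Nf2* (0.885 and 0.935), which encodes merlin. *Ntrk3* was most like *Cacng4* (0.925 and 0.901), an AMPA receptor auxiliary subunit gene, and *Utp14b* (0.898 and 0.931), and *Ntrk2* most like *Lsm11* (0.865 and 0.875) and *Stox2* (0.864 and 0.911). The points share library and depth, and with 8 mice per genotype the top of 14575 genes is high by selection.

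Among the 4 other sorting receptors related to sortilin, 2 were lower in R6/1 mice (n = 8 each) and 0 higher. *Sorcs2*, which encodes a sortilin relative that acts with p75NTR, had 98.4 to 138 CPM in wt and 59.6 to 79.0 CPM in R6/1 mice, without overlap (log2 fold change -0.79 ± 0.07, SE, adjusted p = 1.8e-07). *Sorcs1* stood at -0.21 ± 0.07 (adjusted p = 0.0289), with an overlap between 49.2 to 72.3 CPM in R6/1 and 55.8 to 69.4 CPM in wt mice. It was called in R6/1 poor (-0.31, adjusted p = 0.00298) and not in R6/1 good mice (-0.12, adjusted p = 0.341), a difference between R6/1 groups of -0.17 ± 0.10 (adjusted p = 0.433). *Sorcs3* (-0.20 ± 0.12, adjusted p = 0.245) and *Sorl1* (-0.01 ± 0.06, adjusted p = 0.906) did not pass the test.

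The pathway around the receptors was described by 7 lists, for which the comparison is R6/1 against wt throughout and the background is the 17% of genes called lower and 17.2% called higher. Of 14 tested genes of proneurotrophin cleavage and secretion, 3 were lower and 1 higher, with a median log2 fold change of 0.06. The share called (28.6%) was below that of all genes (34.2%). *Cpe*, the gene of carboxypeptidase E, which sorts proBDNF into secretory granules, had 2331 to 2747 CPM in wt and 1827 to 2228 CPM in R6/1 mice (-0.31 ± 0.05, adjusted p = 0.000180). *Plat*, the gene of tissue plasminogen activator, which activates plasmin, a protease that cleaves proBDNF, stood at -0.34 ± 0.07 (adjusted p = 0.000974), and the prohormone convertase gene *Pcsk2* at -0.34 ± 0.08 (adjusted p = 0.00382).

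Of 22 adaptors that dock on Trk receptors, 4 were lower, 4 higher and 14 not called, with a median of 0.04, and the share called (36.4%) was near that of all genes (34.2%). The Ras exchange factor genes *Sos1* and *Sos2* were higher, at 0.38 ± 0.08 (SE, adjusted p = 0.000729) and 0.23 ± 0.06 (adjusted p = 0.00834), and the adaptor gene *Shc2* was lower, at -0.34 ± 0.07 (adjusted p = 0.000892). Of 31 genes of the kinase cascades below Trk, 12 were lower and 2 higher, with a median of -0.14. *Camk4*, a calcium-dependent kinase gene, had 62.9 to 103 CPM in wt and 23.8 to 48.2 CPM in R6/1 mice (-1.27 ± 0.14, adjusted p = 2.9e-06). The GTPase gene *Hras* stood at -0.83 ± 0.10 (adjusted p = 4.7e-06) and the kinase gene *Akt2* at -0.90 ± 0.11 (adjusted p = 5.9e-06). Both were without overlap between the genotypes, as were 5.03% of all genes in the lower direction, and were named for their small p.

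Of 21 partners and effectors of p75NTR, 7 were higher and 4 lower, with a median of 0.07. *Bex3*, which encodes the p75NTR-associated cell death executor, had 139 to 163 CPM in wt and 174 to 215 CPM in R6/1 mice (0.36 ± 0.05, adjusted p = 4.2e-05). The related *Bex1* stood at 0.34 ± 0.05 (adjusted p = 7.7e-05) and *Maged1*, the gene of the p75NTR-binding protein NRAGE, at 0.34 ± 0.05 (adjusted p = 0.000149), with 471 to 591 CPM in wt and 584 to 721 CPM in R6/1 mice. Of 22 regulators of *Bdnf* transcription, 5 were lower and 3 higher, with a median of -0.05. The share called (36.4%) was near that of all genes (34.2%). *Usf2* (-0.27 ± 0.06, SE, adjusted p = 0.00106) and the CREB coactivator gene *Crtc1* (-0.39 ± 0.08, adjusted p = 0.00172) were lower.

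Of 15 genes that respond to BDNF, 12 were lower in R6/1 mice and 0 higher, with a median log2 fold change of -0.90. Many of them are immediate early genes that also respond to other inputs, so the list is not specific for BDNF. *Homer1*, a synaptic scaffold gene, had 162 to 440 CPM in wt and 65.7 to 133 CPM in R6/1 mice (-1.45 ± 0.20, adjusted p = 4.7e-05). The transcription factor gene *Egr2* had 2.17 to 33.9 CPM in wt and 0.196 to 0.900 CPM in R6/1 mice (-4.19 ± 0.62, adjusted p = 8.6e-05), and *Egr3* stood at -1.39 ± 0.22 (adjusted p = 0.000175). *Fos* (-0.90 ± 0.42, adjusted p = 0.110), *Spry4* (-0.28 ± 0.15, adjusted p = 0.165) and *Ier2* (-0.21 ± 0.21, adjusted p = 0.480) did not pass the test. Against wt mice 12 were lower in R6/1 good and 9 in R6/1 poor mice, where 12.4% and 14.9% of all genes were called lower. Between poor and good R6/1 mice 0 of 15 were called.

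Other neurotrophic factors and receptors had 10 of 27 tested genes lower and 0 higher, with a median of -0.22. *Gdnf*, the gene of glial cell line-derived neurotrophic factor, had 3.46 to 5.94 CPM in wt and 2.05 to 2.65 CPM in R6/1 mice (-0.94 ± 0.12, SE, adjusted p = 1.3e-05). The pleiotrophin gene *Ptn* stood at -0.42 ± 0.06 (adjusted p = 3.4e-05) and *Cntfr*, which encodes the receptor of ciliary neurotrophic factor, at -0.35 ± 0.07 (adjusted p = 0.000784). All 3 had no overlap between the 8 wt and 8 R6/1 mice, a separation seen in the lower direction for 5.03% of all genes. They were named for having the smallest p of the list.

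**Figure D5:**
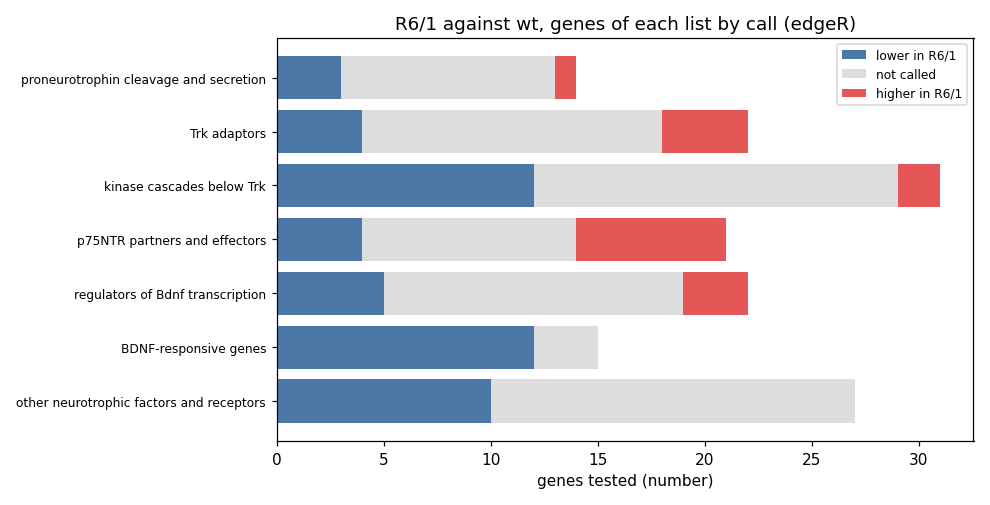
Number of tested genes in each list called lower, not called or called higher in R6/1 against wt mice by edgeR at an adjusted p of 0.05. Of the BDNF-responsive genes 12 of 15 are lower, and of the p75NTR partners and effectors 7 of 21 are higher and 4 lower.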

How the data were processed

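Striatal RNA of 16 mice, 1 library each, was prepared by the authors with a stranded mRNA kit, read as 75 bp pairs and mapped to GRCm38 with TopHat 1.0.1. The submitters' processing notes also name Bowtie and CASAVA. The deposited values are raw counts per gene, whole numbers for 55450 genes in 16 columns. The read counter, its strand setting and the annotation release were not given in the sources used here.

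The counts were used as deposited. The 19363 genes with 10 or more counts in 4 or more libraries were tested with edgeR 4.0.16 (quasi-likelihood, robust, TMM, no covariate), each comparison on its own mice, with Benjamini-Hochberg adjustment over all genes and a threshold of 0.05. Standard errors come from the same fits. Total counts ran from 16155356 to 24897354 (median 20889934), and the spread between mice set the precision of all but the lowest genes. The 6 comparisons were R6/1 against wt, each R6/1 group against pooled wt, poor against good within each genotype, and their interaction. Exon lengths and positions come from the GENCODE annotation of GRCm38. Correlations within a genotype were computed on log2 values and tested by exact permutation (scipy 1.17.1). The edgeR and DESeq2 fits of R6/1 against wt, with 8 libraries on each side, were tested on simulated data, and the fits of the other comparisons were not. R 4.3.3, limma 3.58.1, Python 3.11.15 and matplotlib 3.10.9 were used.

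The members and lists were chosen with earlier results of these data known. Named were all members, their relatives, up to 3 called genes with the smallest p of each list and the 2 genes most like each member (average log2 CPM of at least 1, prior count 2). *Fos*, *Spry4* and *Ier2* were named after their values were seen. Of the listed symbols, 1 had no match. Some genes that this rule names are not reported here. Alternatives were DESeq2 1.42.0, RLE factors, no filter or a filter of 50 counts, 1 fit of all groups, a replicate block, the running library number (1 to 8 or 9 to 16, a possible batch whose meaning is not given) as a covariate or each of these sets alone, wt mice of the same performance as controls, and leaving out each mouse. No value of the authors' own comparisons was used.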

Additional observations from a re-analysis of the deposited data

Results flagged for a closer look

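Of 24 sets of 4 mice checked (the 6 named genes in each group), 2 held a mouse far from the other 3. Chance flags about 1 in 20 where values are normally distributed, which was not tested for these CPM. *Bdnf* in wt poor mouse 2 was 20.8 CPM, and the other wt poor mice had 1.71 to 4.59 CPM. That mouse also had the highest sum of cortical markers of its group, 732 CPM. *Ntrk2* in R6/1 good mouse 2 was 468.1 CPM, and the other R6/1 good mice had 505.1 to 507.2 CPM. Without that mouse the log2 fold change of *Ntrk2* in R6/1 good against wt mice was -0.48 and its call was kept.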

How the results depend on the processing

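Counts of members called changed in a few settings. Within libraries 1 to 8, 0 members were called in R6/1 poor against wt mice, where 1 poor mouse faced 3 wt mice and was assumed to vary like the others, and DESeq2 called 1 member, *Ntrk2*, between poor and good R6/1 mice. Within libraries 9 to 16, 2 members in place of 3 were called in R6/1 against wt mice. Leaving out each mouse in turn, 3 members were called in R6/1 against wt and in R6/1 good against wt mice each time, 2 to 3 in R6/1 poor against wt mice (3 without R6/1 poor mouse 3), and 0 in the other comparisons. No other alternative changed a count of members called. The calls of *Ntrk3* and *Sort1* in R6/1 against wt mice held under every alternative run, and that of *Ntrk2* under every one but libraries 9 to 16 alone.

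The values that changed sign belonged to differences that did not pass the test. For *Bdnf* in R6/1 against wt mice they were 0.30 within libraries 9 to 16 and 0.04 without wt poor mouse 2, the highest of a range from -0.71. For *Bdnf* in R6/1 poor against wt mice they were -0.05 with the library number set as a covariate, -1.27 within libraries 1 to 8 and -0.40 to 0.48 leaving out each mouse. *Ngfr* in this comparison had 0.13 within libraries 1 to 8. Between poor and good R6/1 mice *Bdnf* had -0.30 with the covariate and -0.30 within libraries 1 to 8, and *Ntrk3* -0.01 under both and -0.041 to 0.09 leaving out each mouse. Between wt poor and good mice *Bdnf* had -0.92 within libraries 1 to 8 and -1.06 to 0.92 leaving out each mouse, *Ngfr* had -0.44 to 0.70 leaving out each mouse, and *Sort1* had 0.062 within libraries 9 to 16. The causes were not tested.

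With the replicate number as a block, *Ngfr* between wt poor and good mice had 0.37, and no call of a member changed. The numbers are not known to pair mice. The deviations of 24 same-numbered pairs correlated at -0.35 to 0.23 (median 0.01), and 2 of 16 mice correlated best with their own number. Depth limited *Ntf3* (1 to 15 counts), and the spread between mice limited *Bdnf* and *Ngfr*.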
